A study of Mus musculus with 2 samples.

Results

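Tuft cells were compared with enteroendocrine cells of the mouse ileal crypt within the same 2 single-cell RNA-seq libraries. The cells were those that the authors' cell table calls TUFT on one side and EC or NON-EC on the other. The names EC and NON-EC were read here as enterochromaffin and other hormone cells, a reading checked against markers below, and both together are called EEC. The 2 sides held 644 of the 11562 listed cells. TUFT made up 304 cells, 161 in replicate 1 and 143 in replicate 2. EEC made up 340 cells, 145 in replicate 1 (42 EC, 103 NON-EC) and 195 in replicate 2 (83 EC, 112 NON-EC). The unique molecular identifiers (UMIs) of each side were added up within each library, so that each side had 2 sums, paired by library.

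Both libraries are labelled WT (wild type), and all cells came from mice carrying Atoh1CreER-T2 and R26RTom. The first is a tamoxifen-inducible recombinase driven by Atoh1, and the second a reporter that stays red in a recombined cell and its progeny. The mice received 2 doses of tamoxifen at 1 mg/mL, 24 h apart, and crypts were taken 12 h after the last dose for sorting of live Tom+ cells. The series holds no untreated or unlabelled group, so both sides share genotype, tamoxifen and sort, and tuft or enteroendocrine cells that did not recombine are not represented. The labels do not say that the libraries came from separate animals, so p-values speak only for these libraries, whose spread may be technical. The spread they use is what remains after class and library in 22 sums. It is shared over all classes of the cell table and does not come from TUFT and EEC alone.

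Tuft cells are rare chemosensory cells of the gut epithelium. They detect luminal cues through a G protein and calcium cascade shared with taste cells, and they release lipid mediators, acetylcholine and the cytokine IL-25, through which they alert the immune system to parasites. Enteroendocrine cells are also sensory, but they are electrically excitable, store peptide hormones or serotonin in dense-core granules, and are specified by the transcription factor Neurog3. Both were long counted among the secretory lineages that depend on Atoh1.

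The class names fitted their defining markers. The 12 tuft markers together stood at 6972 and 5003 CPM (UMIs per 1000000, before the scaling used elsewhere) in the TUFT sums and at 12.0 and 42.4 CPM in the EEC sums. The 12 enteroendocrine markers stood at 25818 and 23468 CPM in EEC and at 36.2 and 17.8 CPM in TUFT, where 9 and 7 of the 12 had no UMI. Single cells kept the 2 sides apart as well. With at least 3 UMIs of 6 tuft genes and at least 3 UMIs of 6 enteroendocrine genes required in the same cell, 1 TUFT cell and 1 NON-EC cell per library held both, and 0 EC cells did.

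The sums held 608473 and 392983 UMIs for TUFT and 501400 and 542702 for EEC. Median depth per cell was close between the sides, at 3403 and 2317 UMIs in TUFT and 3425 and 2336 in EEC. TUFT cells had fewer genes detected (medians of 1652 and 1205 against 1799 and 1353) and more mitochondrial UMIs (medians of 4.75% and 4.21% against 2.69% and 2.68%). EC cells supplied 25.9% of the EEC UMIs in replicate 1 and 39.4% in replicate 2, so the EEC sums of the 2 libraries differ in makeup. Goblet markers were found on both sides, at 14648 and 17983 CPM in TUFT and 14595 and 15718 CPM in EEC. Paneth markers stood at 15831 and 12306 CPM in TUFT and 8602 and 16416 CPM in EEC. Barcodes with at most 50 UMIs, which carry free RNA, held 63626 and 48313 CPM of the goblet markers and 79853 and 143767 CPM of the Paneth markers. The upper limit of free RNA was 8.51% and 6.21% of the TUFT sums and 6.17% and 7.39% of the EEC sums. Its part in the differences below was not tested.

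The 2 cell types differed in a large share of their measured genes. Of 7231 tested genes, cell type markers left out, 2107 (29.1%) passed the test, edgeR's quasi-likelihood test with Benjamini-Hochberg adjusted p under 0.05. These were 897 genes higher in TUFT (12.4%) and 1210 lower (16.7%). The difference was at least 2-fold, an absolute log2 change of 1 or more, in 460 of the higher and 875 of the lower genes. It was at least 3 on the log2 scale in 102 and 237 genes. Of all called genes, 99.7% lay in the same direction in both libraries. The calls rest on these same 2 libraries, so this agreement is largely built into being called and is no separate check. The classes were assigned from the same expression values, so that the tests of class-defining genes are not independent evidence. The split of calls moved with the scaling, the tool and the weighting of the classes. The main factors put 42.6% of the calls on the TUFT side, against 52.4% with TMM over all genes, 50.1% with DESeq2 and 51.2% with EC and NON-EC weighted equally. TMM over all genes moved the median log2 change of all genes from -0.06 to 0.05. Without the library block, 628 genes were higher and 990 lower.

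**Figure D1:**
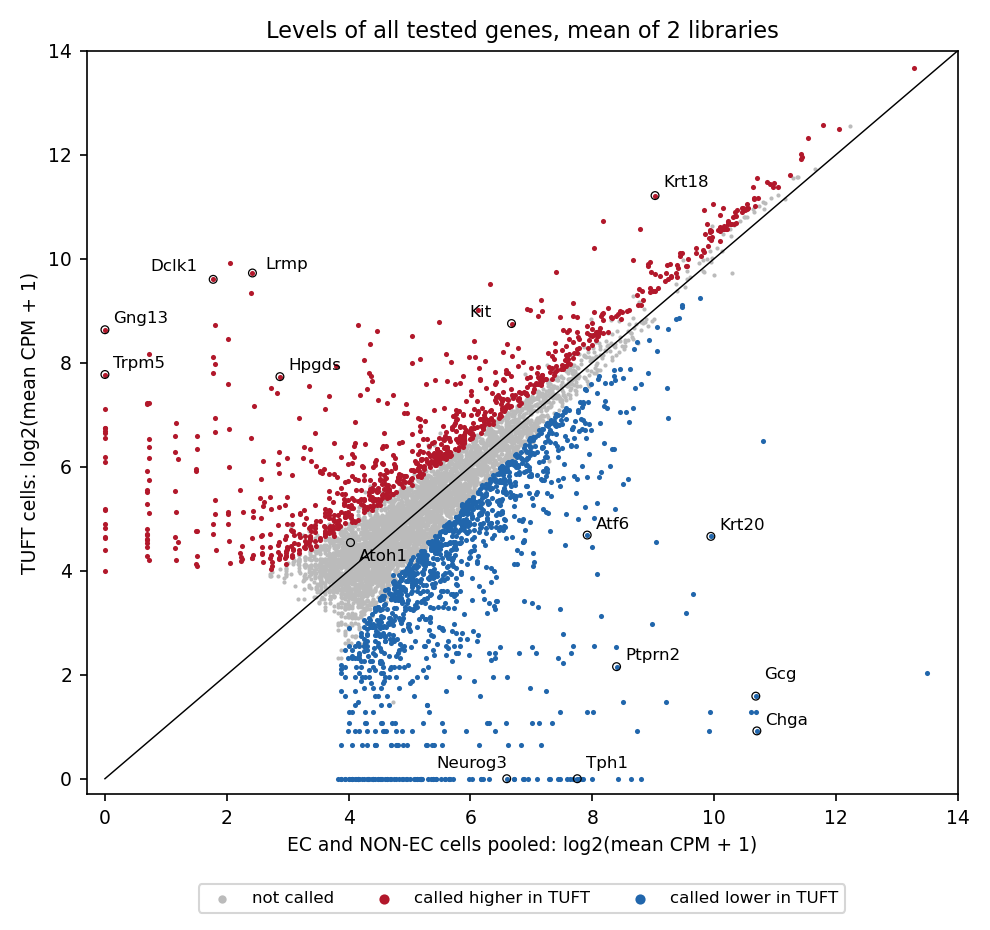
Mean level of each tested gene over 2 libraries in EEC (horizontal) and TUFT (vertical), both as log2(CPM + 1); red genes were called higher in TUFT, blue genes lower, grey genes were not called, and the line marks equal levels. Gng13 and Trpm5 lie at 0 in EEC, Neurog3 and Tph1 at 0 in TUFT, and Atoh1 lies near the line among the genes not called.

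Among genes with a mean log2 CPM of at least 5, the largest increases in TUFT were led by genes otherwise known from blood cells and by lipid and calcium signalling genes. Lrmp, a membrane protein of the endoplasmic reticulum first described in lymphocytes (ENSMUSG00000030263, chr6:145115653-145174934, mm10), stood at 993 and 699 CPM in TUFT and 3.86 and 4.85 CPM in EEC. Its log2 change was 7.57 ± 0.24 (SE), edgeR adjusted p = 7.51e-30. Fyb, an adaptor protein of T cell signalling, stood at 779 and 517 CPM in TUFT and 1.29 and 7.28 CPM in EEC (7.19 ± 0.28 (SE), edgeR adjusted p = 3.64e-24). The TUFT values of both genes lay far above both EEC values, with no overlap. Hpgds, which makes prostaglandin D2, reached 209 and 214 CPM in TUFT and 9.01 and 3.64 CPM in EEC, a log2 change of 5.12 ± 0.43. Plcg2, a phospholipase C of immune receptor signalling, reached 195 and 169 against 6.43 and 4.85 CPM (5.00 ± 0.35), and Itpr2, a receptor that releases calcium from internal stores, 319 and 337 against 18.0 and 20.6 CPM (4.11 ± 0.22). Metabolic enzymes were among these genes too. Aldh2, the mitochondrial aldehyde dehydrogenase, differed by 4.67 ± 0.21 and Galk1, the galactokinase, by 4.36 ± 0.29. The others were Clmn, the actin bundler Espn, the inositol phosphatase Inpp5b, the IL-13 receptor chain Il13ra1 and the phosphatase Ptpn6, and their log2 changes ran from 3.77 to 4.24. EdgeR adjusted p-values of these genes were at most 2.18e-05, that of Espn.

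The largest decreases included 4 genes of secretory granules and their release. Ptprn2, a membrane protein of these granules, stood at 3.34 and 3.57 CPM in TUFT and 398 and 275 CPM in EEC, a log2 change of -6.60 ± 0.36 (SE), edgeR adjusted p = 2.01e-17. Pcsk1, which cuts prohormones, stood at 4.46 and 5.35 against 299.8 and 221 CPM (-5.77 ± 0.30), and Pam, which amidates peptides, at 4.46 and 5.35 against 242 and 165 CPM (-5.42 ± 0.33). Cplx2, a complexin that clamps vesicle fusion, differed by -5.19 ± 0.31. All 4 genes were low in both TUFT sums and high in both EEC sums. Outside the granule, Krt20, a keratin of differentiated gut epithelium, fell from 1280.4 and 692 CPM in EEC to 29.0 and 19.6 CPM in TUFT (-5.28 ± 0.46 (SE), edgeR adjusted p = 4.55e-06). The imprinted zinc finger gene Peg3 (-5.95 ± 0.38), the fatty acid binding protein Fabp5 (-4.75 ± 0.30), the glucose-responsive transcription factor Mlxipl (-4.34 ± 0.38) and the prion protein gene Prnp (-4.33 ± 0.28) were lower too. Mical2, Mctp2 and Dst completed the 12, with log2 changes of -3.93, -3.63 and -3.57.

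**Figure D2:**
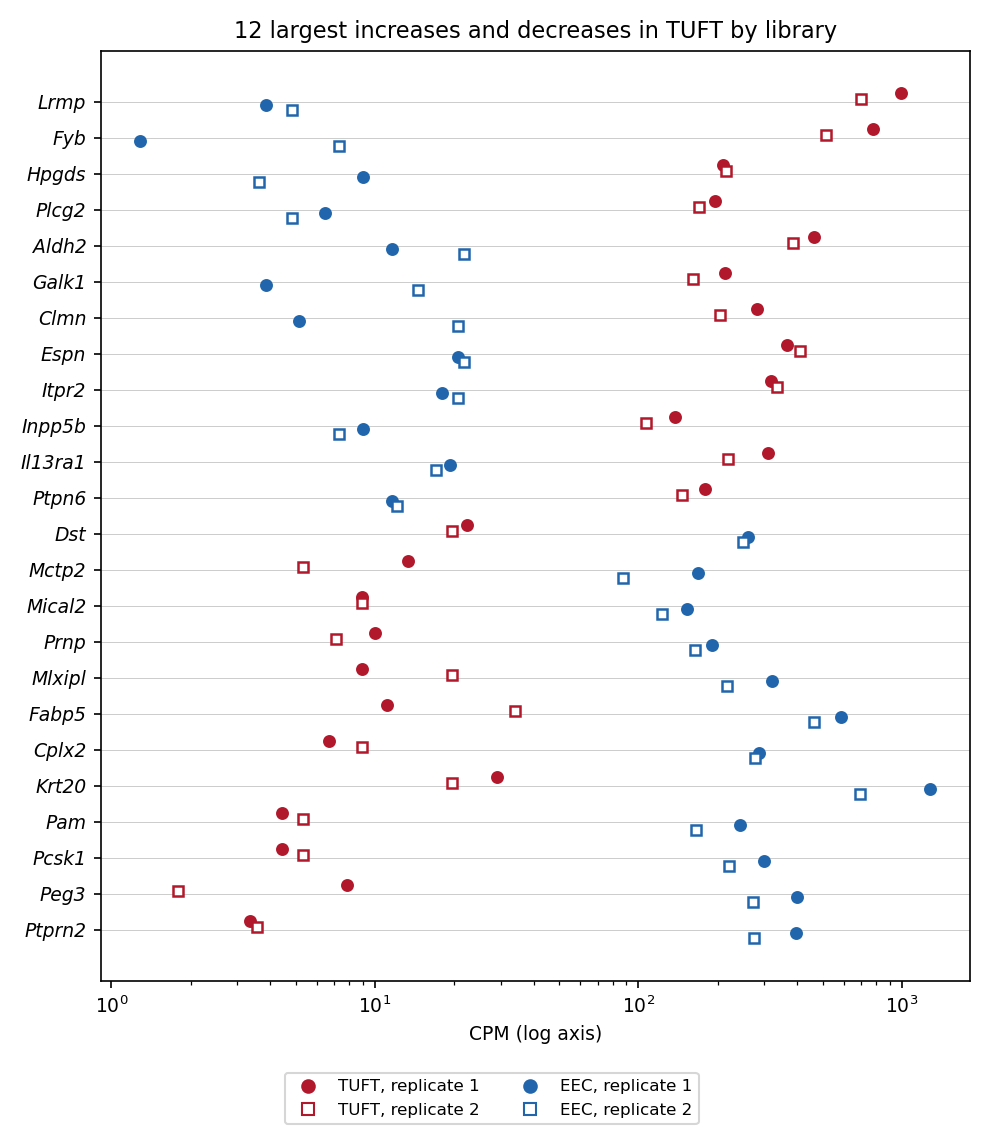
CPM on a log axis of the 12 genes with the largest increases and the 12 with the largest decreases in TUFT, cell type markers left out; each symbol is 1 sum of 1 side and library (red TUFT, blue EEC, filled replicate 1, open replicate 2). In all 24 genes the TUFT and EEC symbols do not overlap; the same direction in both libraries was part of the rule that chose them.

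Transcription factors divided the sides sharply. Of 13 tested tuft-associated factors, markers included, 11 were higher in TUFT and 1 was lower, with a median log2 change of 2.08, against 12.4% higher, 16.7% lower and a median of -0.06 over all genes tested. These lists count the genes that passed the filter on low counts. A gene found on 1 side only passed through that side, so the counts describe the tested genes and not whole lists. Without the cell type markers the factors counted 9 higher and 1 lower of 11. Pou2f3, the master regulator of tuft cells, had 102 and 43 UMIs in TUFT and 0 and 2 in EEC, a level 79.6 times (95% counting interval 21.6 to 664) as high in TUFT. Counting intervals here and below treat UMIs as independent, also where a few cells may hold them, and cover counting error only. Spib, an ETS factor, had 100 and 49 UMIs in TUFT and 0 and 0 in EEC, which puts its level at least 54.5-fold higher in TUFT when 3 UMIs over both libraries are taken as the limit of a count of 0. The homeobox genes Hmx2 and Hmx3 had no UMI in EEC either and were at least 60.0-fold and 57.1-fold higher. Both overlap Fgfr2 on the other strand. Whether reads were counted by strand is not stated in the sources used, and without strand such neighbours cannot be told apart. The same limit holds for Lrmp and Casc1, Trpm5 and Tssc4, Gng13 and Chtf18, Neurog3 and Fam241b, and Avil and Tsfm. Sox9, a factor of crypt base cells, stood at 313 and 210.4 CPM in TUFT and 50.2 and 98.3 CPM in EEC (1.83 ± 0.21 (SE), edgeR adjusted p = 1.14e-07). Etv1 went against the list: it had 0 and 0 UMIs in TUFT and 176 and 104 in EEC and was at least 85.0-fold lower in TUFT. Sox4 was higher in TUFT (442 and 501 against 179 and 249.97 CPM, log2 change 1.13 ± 0.16 (SE), edgeR adjusted p = 7.82e-07), but its log2 change was -0.22 when the enteroendocrine precursors, EEC-PRE, were pooled with EEC.

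Of 20 tested enteroendocrine factors, 19 were lower in TUFT (13 of 14 without markers) and 0 were higher. The median log2 change was -6.47 (-5.75 with the 7 genes that had no UMI on 1 side at their bound). Neurog3, which commits cells to the endocrine fate, had 0 and 0 UMIs in TUFT and 63 and 91 in EEC and was at least 46.8-fold lower in TUFT. Fev, Insm1 and Pax6, which are class markers as Rfx6 is, had no UMI in TUFT and were at least 107-fold, 98.4-fold and 92.6-fold lower. Rfx6 had 2 and 0 UMIs in TUFT and 143 and 114 in EEC, 117 times (95% counting interval 32.1 to 972) the TUFT level in EEC. Egr3 was the member that was not called.

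Atoh1, whose locus drives the recombinase, was not called different between the sides. It stood at 26.7 and 17.8 CPM in TUFT and 6.43 and 24.3 CPM in EEC, a log2 change of 0.54 ± 0.55 (SE), edgeR adjusted p = 0.528, and the values of the 2 sides overlapped. With cells thinned to 2000 UMIs, a UMI of Atoh1 was found in 7.69% (3.75 to 13.7%) and 6.90% (2.57 to 14.4%) of TUFT cells, and in 25.0% and 20.2% of goblet precursors (the class GOBLET-PRE) at the same depth. In EC these shares were 0 of 34 cells, which allows up to 8.82%, and 10.6% (3.55 to 23.1%). In NON-EC they were 3.19% (0.663 to 9.04%) and 5.13% (1.41 to 12.6%). The intervals are exact 95% binomial intervals and cover counting error only. Of 13 tested secretory lineage factors, 4 were higher in TUFT and 3 lower. Cdx1, a factor of intestinal identity, was higher (215 and 169 against 93.9 and 72.8 CPM, 1.22 ± 0.17), while its relative Cdx2 (-0.65 ± 0.24, a call lost under 9 alternatives), the factor Gata6 (-0.65 ± 0.19) and the vitamin D receptor Vdr (-1.20 ± 0.25) were lower. Xbp1 and Spdef, factors of secretory cells, were not called, with log2 changes of -0.24 and 0.66.

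Promoters of 4 called genes are shown because the factors above belong to families with known DNA words: POU factors such as Pou2f3 bind the octamer ATGCAAAT, RFX factors such as Rfx6 bind the X-box, of which GTTGCCA is a part, and NEUROD1 and NEUROG3 bind E-boxes such as CAGATG. The genes were chosen after the motifs and values were seen. Each sequence is the 250 bases before the start site, 5′ to 3′ on the gene's strand, from RefSeq on GRCm38.p6, with motif letters in capitals on whichever strand they matched. Hpgds (chr6:65144731-65144980, minus strand) held the octamer once, its last base 167 bases before the start site, and 1810046K07Rik (chr9:51328919-51329168, minus strand) held it on both strands, 79 and 48 bases before. Pcsk1n (chrX:7919572-7919821, plus strand), an inhibitor of prohormone convertase, held this X-box word once, and Gcg (chr2:62483654-62483903, minus strand), which encodes glucagon and GLP-1, held CAGATG at 2 places.
Hpgds: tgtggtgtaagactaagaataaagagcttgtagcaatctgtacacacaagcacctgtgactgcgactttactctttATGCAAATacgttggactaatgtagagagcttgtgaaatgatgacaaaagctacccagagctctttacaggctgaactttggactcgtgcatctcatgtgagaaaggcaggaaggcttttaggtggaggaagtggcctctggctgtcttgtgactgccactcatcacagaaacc
1810046K07Rik: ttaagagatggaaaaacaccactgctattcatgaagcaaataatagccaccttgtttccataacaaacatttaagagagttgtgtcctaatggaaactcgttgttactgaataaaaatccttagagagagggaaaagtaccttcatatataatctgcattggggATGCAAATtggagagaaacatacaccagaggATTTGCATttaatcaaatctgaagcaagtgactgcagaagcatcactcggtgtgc
Pcsk1n: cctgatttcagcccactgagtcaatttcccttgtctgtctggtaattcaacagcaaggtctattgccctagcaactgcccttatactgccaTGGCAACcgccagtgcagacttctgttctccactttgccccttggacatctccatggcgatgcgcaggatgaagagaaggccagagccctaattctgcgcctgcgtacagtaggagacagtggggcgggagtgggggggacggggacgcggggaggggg
Gcg: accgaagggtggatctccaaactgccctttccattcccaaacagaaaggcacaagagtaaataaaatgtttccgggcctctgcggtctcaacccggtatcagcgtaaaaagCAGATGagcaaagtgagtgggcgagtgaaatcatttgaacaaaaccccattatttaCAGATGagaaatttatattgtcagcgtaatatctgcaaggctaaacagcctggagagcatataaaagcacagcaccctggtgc

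Over all genes the octamer occurred in 1.81% of 27025 genes with a RefSeq promoter of this length, in 1.51% of the tested genes, in 3.32% of genes higher in TUFT and in 1.08% of genes lower. The X-box word occurred in 3.69% of tested genes, 3.61% of those higher and 4.32% of those lower. The word CAGATG occurred in the same groups at 10.9%, 12.9% and 12.0%. These are counts of letters among 16 words searched, with no test, and a match does not show a bound site. The gene 1810046K07Rik had 58 and 39 UMIs in TUFT and 0 and 0 in EEC, at least 35.5-fold higher in TUFT, and Pcsk1n had 0 and 1 UMIs in TUFT and 38 and 58 in EEC.

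Genes of the taste-type cascade were higher in TUFT. Of 8 tested members, markers included, 7 were higher in TUFT (5 of 6 without markers) and 0 lower, with a median log2 change of 5.01 (4.06 with 2 genes at their bound). Trpm5, the calcium-gated cation channel that ends this cascade, had 207 and 115 UMIs in TUFT and 0 and 0 in EEC and was at least 118-fold higher. Gnat3, the taste G protein alpha subunit gustducin, had 31 and 13 UMIs in TUFT and 0 and 0 in EEC (at least 16.1-fold), and its partner Gng13 had 294 and 261 UMIs in TUFT and 0 and 0 in EEC (at least 203-fold). The EEC sums were empty for all 3 genes. Trpm5 is a class marker outside the list and is not among the 8. Ffar3, a receptor for short-chain fatty acids, was in this list and higher in TUFT as well (36.8 and 30.3 against 11.6 and 4.85 CPM, 2.02 ± 0.56). Plcb2, the phospholipase that links the G protein to calcium release, stood at 227 and 157 CPM in TUFT and 0 and 6.07 CPM in EEC (5.92 ± 0.39 (SE), edgeR adjusted p = 1.91e-17). Rgs13, which shortens G protein signals, stood at 1312 and 629 against 3.86 and 2.43 CPM (8.23 ± 0.28). Itpr3, the calcium store receptor of taste cells, was the exception: it stood at 29.0 and 49.9 CPM in TUFT and 37.3 and 46.1 CPM in EEC and was not called (log2 change -0.14 ± 0.28). The other members of the list of 20, taste receptors among them, did not pass the filter on low counts.

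Enzymes of eicosanoid synthesis followed the same pattern, with 9 of 12 tested members higher in TUFT (6 of 9 without markers), 0 lower and a median log2 change of 3.97. They covered most steps from membrane lipid to mediator. Pla2g4a, the phospholipase that frees arachidonic acid, stood at 218 and 119 CPM in TUFT and 1.29 and 10.9 CPM in EEC (4.76 ± 0.36 (SE), edgeR adjusted p = 1.05e-12). Ptgs1, the cyclooxygenase, had 86 and 51 UMIs in TUFT and 0 and 0 in EEC (at least 50.1-fold). On the leukotriene branch, Alox5 had 58 and 32 UMIs in TUFT and 0 and 3 in EEC, 32.9 times (95% counting interval 10.9 to 163) as high in TUFT, its helper Alox5ap had 312 and 126 UMIs in TUFT and 1 and 0 in EEC, and Ltc4s, which conjugates leukotriene C4, stood at 255 and 191 against 0 and 4.85 CPM (6.46 ± 0.38). Hpgds has been described above. Mgst3 stood at 1091 and 367 against 111 and 47.3 CPM; its TUFT level in replicate 1 was well above that in replicate 2, and both exceeded EEC (3.18 ± 0.14).

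Of the outputs of immune crosstalk, Chat and Il25 were sparse in TUFT. Chat, which makes acetylcholine, had 19 and 15 UMIs in TUFT and 0 and 0 in EEC (at least 12.4-fold higher in TUFT). It shares its locus and strand with Slc18a3. Il25, the tuft cell alarmin, had 4 and 2 UMIs in TUFT and none in EEC, too few for the test, and at 2000 UMIs per cell 1 of 130 and 0 of 87 TUFT cells had one. The receptor chain Il13ra1, which receives the IL-13 signal, stood at 311 and 219 CPM in TUFT and 19.3 and 17.0 CPM in EEC (3.89 ± 0.23 (SE), edgeR adjusted p = 1.40e-19), and its partner Il4ra at 31.2 and 25.0 against 10.3 and 14.6 CPM (1.19 ± 0.42, adjusted p = 0.028 by edgeR). Jak1 was lower in TUFT (-0.54 ± 0.20), a call lost under 9 alternatives.

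Kinases and adaptors otherwise known from blood cells formed a large TUFT group: of 17 tested, 15 were higher (12 of 14 without markers), 0 lower, with a median log2 change of 5.02. Vav1, an exchange factor of antigen receptor signalling, stood at 155 and 130.2 CPM in TUFT and 6.43 and 2.43 CPM in EEC (5.02 ± 0.37 (SE), edgeR adjusted p = 4.84e-16), and Pik3cg, a PI3 kinase driven by G proteins, had 155 and 70 UMIs in TUFT and 1 and 0 in EEC. Bmx, a TEC family kinase, and Sh2d7 had no UMI in EEC and were at least 56.7-fold and 75.0-fold higher. Ptprc, the leukocyte antigen CD45, had 22 and 11 UMIs in TUFT and 0 and 1 in EEC, 36.2 times (95% counting interval 6.07 to 1474) as high in TUFT. It was the one gene of the 7 immune cell markers with a UMI in TUFT, and the others, among them Cd3e, Csf1r, Nkg7, Cd52 and Lyz2, were at 0 in both TUFT sums.

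Cytoskeletal genes differed gene by gene. Of 21 tested actin bundlers, villins and brush border genes, 12 were higher in TUFT (11 of 20 without markers) and 2 lower, with a median log2 change of 0.41. Avil, an actin severing and bundling protein of tuft cells, stood at 471 and 373 CPM in TUFT and 2.57 and 2.43 CPM in EEC (7.38 ± 0.32 (SE), edgeR adjusted p = 1.05e-24). Espn stood at 365 and 410.1 against 20.6 and 21.8 CPM (4.20 ± 0.45) and the microvillar motor Myo1a at 157 and 137 against 21.9 and 37.6 CPM (2.32 ± 0.22), while the villin gene Vil1, shared by all gut epithelium, differed by 0.38 ± 0.14, a call lost under 5 alternatives. Eps8 and Eps8l2, which cap and bundle actin at microvillar tips, were lower in TUFT (-1.83 ± 0.28 and -0.89 ± 0.22). Keratins split by gene. Krt18 stood at 2389 and 2363 CPM in TUFT and 501 and 544 CPM in EEC (2.19 ± 0.10 (SE), edgeR adjusted p = 1.26e-24) and Krt8 differed by 0.84 ± 0.14, whereas Krt20 and Krt7 were lower (-5.28 ± 0.46 and -1.22 ± 0.13). Claudins split too, with Cldn3 higher (1.17 ± 0.14) and Cldn4 lower (-2.02 ± 0.34). In the list of keratins, claudins and adhesion genes, 6 of 17 were higher and 5 lower. Annexins and S100 genes showed 5 of 12 higher and 4 lower. S100a11 and Anxa2 were among the former (1.87 ± 0.17 and 1.27 ± 0.21), and Anxa5 was among the latter (-3.08 ± 0.32). Anxa6 had 1 and 0 UMIs in TUFT and 72 and 38 in EEC.

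Hormone and granule genes were the other side of the comparison. All 11 tested peptide hormones, 9 of them markers of the classes, were lower in TUFT, with a median log2 change of -9.52 (-9.22 with 2 genes at their bound). With EC and NON-EC weighted equally, 6 of 11 were called lower, with a median of -5.28, DESeq2 called 9, and against EC alone 2 of 3 tested were lower. The TUFT sums were nearly empty of them: Gcg had 2 and 1 UMIs in TUFT and 1909 and 687 in EEC, Cck 1 and 1 UMIs in TUFT and 1838 and 774 in EEC, and Ghrl, which encodes ghrelin, 1 and 1 UMIs in TUFT and 1397 and 1099 in EEC. The EEC levels were 788, 1189.5 and 1137 times the TUFT levels, with 95% counting intervals whose lower ends were 269, 329 and 314. Sct, the secretin gene, was the hormone with the most residual signal in TUFT, at 82.4 and 96.3 against 2275 and 1286 CPM (-4.33 ± 0.29). Of 13 tested granins and processing enzymes, 13 were lower (7 of 7 without markers), with a median of -6.60 (-5.66 with 4 genes at their bound). The fitted median was -9.64 with the cells of the highest doublet scores left out. Chga, chromogranin A, had 0 and 1 UMIs in TUFT and 1472 and 1183 in EEC, 2418 times (95% counting interval 434 to 95552) the TUFT level in EEC, and Cpe, which trims prohormones, had none in TUFT and 382 and 328 in EEC (at least 216-fold). Serotonin genes were lower in 5 of 10 tested cases, but 4 of the 10 are class markers, Tph1 and Ddc among them. Without markers 1 of 6 was lower, a share near the 16.7% over all genes. Tph1, the rate-limiting enzyme, had 0 and 0 UMIs in TUFT and 185 and 158 in EEC (at least 104-fold), Ddc stood at 6.68 and 7.13 against 562 and 451 CPM (-6.18 ± 0.29), and general cofactor enzymes such as Pts and Spr were not called (0.06 ± 0.26 and -0.13 ± 0.25).

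Machinery of regulated secretion and excitability was lower in TUFT as well. In regulated exocytosis 17 of 21 tested genes were lower and 3 higher, with a median log2 change of -3.16. Snap25, the neuronal SNARE, had no UMI in TUFT (at least 30.1-fold lower), nor had the vesicle GTPase Rab3c (at least 58.9-fold). The exceptions were Rab27b (96.9 and 76.7 against 28.3 and 26.7 CPM, 1.69 ± 0.27), the SNARE Vamp8 (0.64 ± 0.19) and Snap23 (1.33 ± 0.46), the last a SNARE of the same family as Snap25. Of 16 tested channels, 10 were lower and 2 higher. Scn3a, a voltage-gated sodium channel, Cacna2d1, a calcium channel subunit, and Kcnb2, a delayed rectifier, had no UMI in TUFT and were at least 109-fold, 75.6-fold and 55.9-fold lower. Cacna1a, a presynaptic calcium channel, was present on both sides and lower in TUFT (93.6 and 66.0 against 373 and 284 CPM, -1.99 ± 0.17). In the opposite direction, the calcium-gated potassium channel Kcnn4 stood at 53.5 and 53.5 CPM in TUFT and 2.57 and 7.28 CPM in EEC (3.42 ± 0.41 (SE), edgeR adjusted p = 1.76e-09), and Kcnq1 at 69.1 and 49.9 against 10.3 and 10.9 CPM (2.56 ± 0.39). Kcnq1 overlaps Kcnq1ot1 on the other strand. Of 7 tested nutrient and hormone receptors, 5 were lower in TUFT and 0 higher, led by the fatty acid receptors Ffar1 and Ffar2. Another fatty acid receptor, Ffar3, was counted in the taste-type list instead and was higher in TUFT. Ffar2 stood at 3.34 and 5.35 against 226 and 172 CPM (-5.57 ± 0.40), and Ffar1 had 1 and 0 UMIs in TUFT and 125 and 54 in EEC. Most of the 35 receptors of the list did not pass the filter on low counts.

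**Figure D3:**
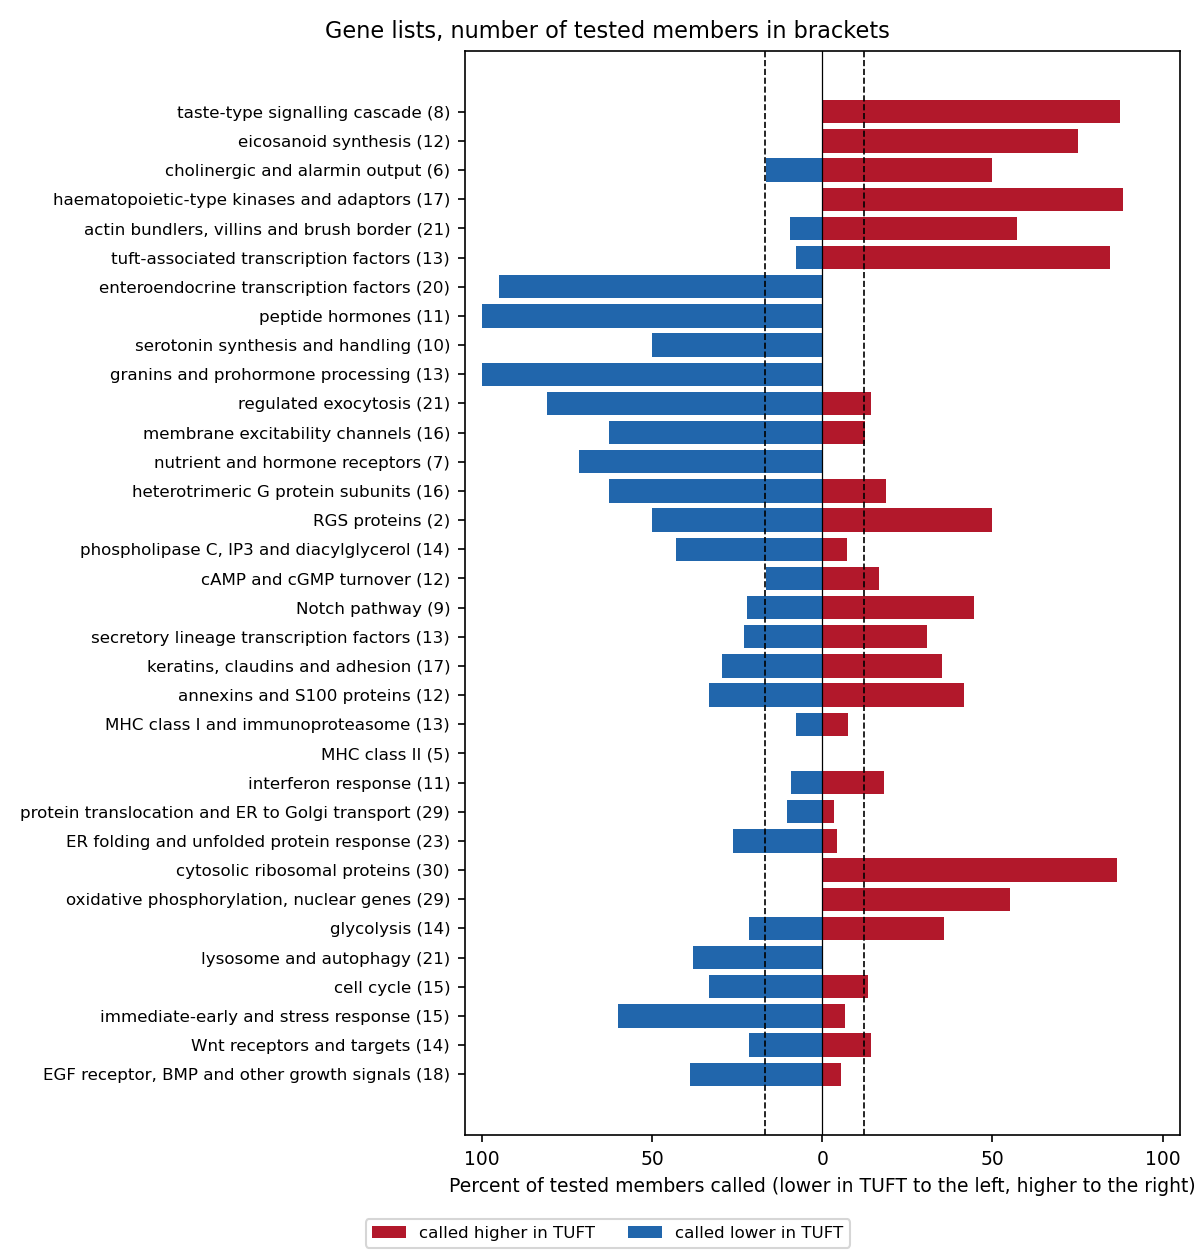
Percent of the tested members of each gene list that were called higher (red, right) or lower (blue, left) in TUFT than in EEC by edgeR, with the number of tested members in brackets and cell type markers included. Dashed lines mark the percentages over all tested genes with cell type markers left out, 12.4% and 16.7%. The 4 longest red bars are the taste-type cascade, haematopoietic-type kinases, tuft factors and ribosomal proteins, while peptide hormones and granins reach 100% to the left.

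Within several families of G protein and calcium signalling, 1 member was higher in TUFT and another in EEC. Among 16 tested G protein subunits outside the taste list, 10 were lower in TUFT and 3 higher, with a median log2 change of -0.63. Where TUFT had Gnat3 and Gng13, EEC had Gnao1 (1 and 0 UMIs in TUFT and 139 and 86 in EEC), Gng4 (0 and 0 UMIs in TUFT and 47 and 35 in EEC) and Gng2 (2 and 0 UMIs in TUFT and 74 and 47 in EEC). Gnai2, Gng5 and Gng11 were higher in TUFT (0.82 ± 0.13, 0.73 ± 0.13 and 1.93 ± 0.45). Among phospholipases, Plcb2 was a TUFT gene and Plcb4 an EEC gene (20.1 and 16.05 against 74.6 and 49.8 CPM, -1.76 ± 0.30). Among calcium store receptors, Itpr2 was higher in TUFT and Itpr1 lower (7.80 and 1.78 against 139 and 116 CPM, -4.54 ± 0.35). Of the pumps that refill the stores, Atp2a3 was higher in TUFT (517 and 533 CPM in TUFT and 111 and 129.8 CPM in EEC, 2.17 ± 0.17 (SE), edgeR adjusted p = 1.71e-11) and Atp2a2 lower (-0.67 ± 0.15). Rgs22 had 65 and 46 UMIs in TUFT and 0 and 2 in EEC and Rgs7 0 and 0 UMIs in TUFT and 12 and 15 in EEC. In all, 6 of 14 further genes of phospholipase C and IP3 signalling were lower in TUFT and 1, Atp2a3, was higher. Of 12 genes of cyclic nucleotide turnover, 2 were higher and 2 lower, shares near the 12.4% and 16.7% over all genes. Adcy5, an adenylyl cyclase, had 45 and 22 UMIs in TUFT and 0 and 1 in EEC, and Gucy2c, the guanylin receptor, stood at 76.9 and 76.7 against 157 and 114 CPM (-0.81 ± 0.19).

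**Figure D4:**
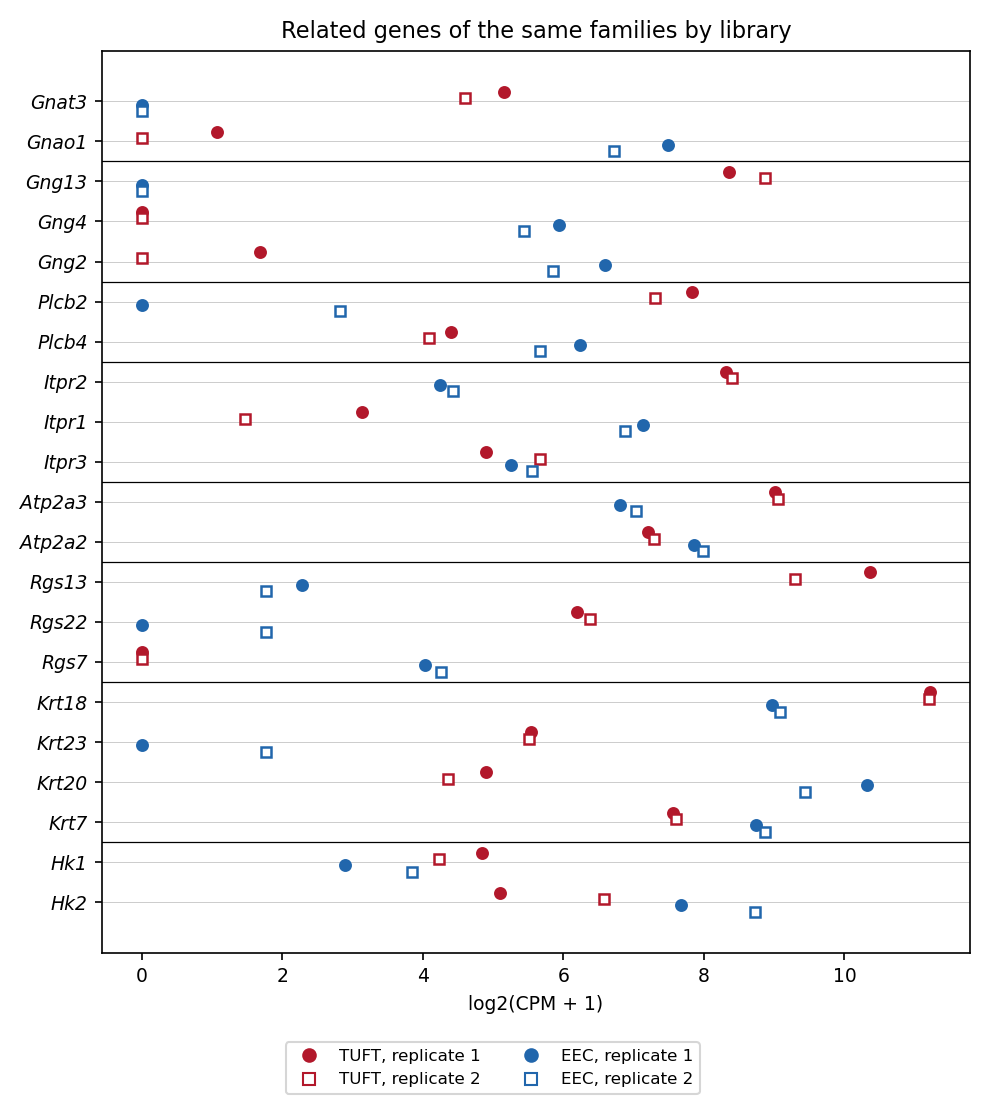
Levels, as log2(CPM + 1), of related genes grouped by family between the lines: G protein alpha subunits, gamma subunits, phospholipase C beta, IP3 receptors, calcium pumps, RGS proteins, keratins and hexokinases; each symbol is 1 sum of 1 side and library. The genes shown were picked from these families, and others, such as Gnai2, Gng5, Gng11 and Krt8, all higher in TUFT, are left out. Among the genes shown, most families have 1 gene higher in TUFT (red) and another higher in EEC (blue), a pattern that depends on this choice. The symbols of Itpr3 are mixed.

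Genes of sugar metabolism also went both ways. Of 14 tested glycolysis genes, 5 were higher in TUFT and 3 lower. Hk2, a hexokinase, stood at 33.4 and 94.5 CPM in TUFT and 203 and 425 CPM in EEC (-2.34 ± 0.23 (SE), edgeR adjusted p = 3.87e-09). Hk1 and Pfkp, from the first steps of glycolysis, were higher in TUFT (1.28 ± 0.47 and 1.60 ± 0.44; for Hk1 the edgeR adjusted p was 0.0799 without the library block), as was Ldha (173 and 275 against 68.2 and 126 CPM, 1.16 ± 0.19). Housekeeping groups differed by less but in 1 direction. Of 30 ribosomal protein genes, 26 were higher in TUFT and 0 lower, with a median log2 change of 0.43. Rpl3 and Rps19 differed by 0.66 ± 0.10 and 0.82 ± 0.13. This count was 29 with TMM over all genes, 11 without the library block and 4 with the enteroendocrine precursors pooled into EEC. Of 29 nuclear genes of oxidative phosphorylation, 16 were higher and 0 lower, with a median of 0.44, and the count was 10 without the library block. Cox6c stood at 1054 and 966 CPM in TUFT and 418 and 393 CPM in EEC (1.32 ± 0.11 (SE), edgeR adjusted p = 4.25e-14). Of 13 mitochondrially encoded genes, 12 were higher, with a median of 0.64, beside the higher share of mitochondrial UMIs in TUFT cells. The part of that share in these differences was not tested.

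Lysosome genes lay the other way, with 8 of 21 lower in TUFT and 0 higher (median log2 change -0.45). With TMM over all genes 5 were lower and 1 higher, and 3 were lower with a minimum count of 30 (13 tested), with cells thinned to 2000 UMIs (16 tested) or against EC alone (17 tested). Ctsl and Ctsz, lysosomal proteases, differed by -1.77 ± 0.38 and -1.20 ± 0.21. Genes of the folding machinery of the endoplasmic reticulum were lower in 6 of 23 cases and higher in 1, with a median of -0.39, beside 16.7% lower over all genes. The count of lower genes was 3 with EC and NON-EC weighted equally, 2 of 19 against EC alone and 1 in the 4 sums without the block. Calr and Canx, chaperones of glycoproteins, differed by -0.55 ± 0.11 and -0.63 ± 0.13. The gene with the largest change was Atf6, a sensor of unfolded protein, at 24.5 and 25.0 CPM in TUFT and 292 and 189 CPM in EEC (-3.28 ± 0.23 (SE), edgeR adjusted p = 8.02e-16). The one higher member was Ero1lb, an oxidase for disulfide bonds (71.3 and 58.8 against 14.2 and 15.8 CPM, 2.17 ± 0.33). Protein translocation and transport to the Golgi was close to even, with 3 of 29 lower and 1 higher; Sec11c, a signal peptidase subunit, was the latter (406 and 253 against 97.8 and 93.4 CPM, 1.76 ± 0.16). Antigen presentation was counted beside 29.1% of all genes called. Of 13 tested class I genes 1 was higher and 1 lower, of 5 class II genes edgeR called 0, and of 11 interferon genes 2 were higher and 1 lower.

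Signalling between cells and the cell cycle were also compared, beside 12.4% of all tested genes higher in TUFT and 16.7% lower. In the Notch list, 4 of 9 tested genes were higher in TUFT and 2 lower. The target gene Hes1 and the regulator Dtx4 were higher (1.35 ± 0.36 and 3.12 ± 0.78), and the ligand Dll4 and its activator Mib1 lower (-1.99 ± 0.42 and -1.60 ± 0.24). Among Wnt genes, 2 of 14 were higher and 3 lower, shares near those over all genes. The feedback inhibitor Nkd1 had 29 and 10 UMIs in TUFT and 0 and 1 in EEC. In the growth factor list, 7 of 18 were lower and 1 higher. That 1 was Kit, the stem cell factor receptor, at 326 and 535 CPM in TUFT and 78.5 and 124 CPM in EEC (2.08 ± 0.16 (SE), edgeR adjusted p = 1.26e-14). The receptors Bmpr1a and Egfr were lower (-1.77 ± 0.26 and -2.81 ± 0.59), and Ret, a receptor of neurotrophic factors, had 0 and 0 UMIs in TUFT and 25 and 20 in EEC. Of 15 cell cycle genes, 5 were lower, among them the inhibitors Cdkn1a and Cdkn1c (-2.25 ± 0.27 and -2.13 ± 0.25), and 2 were higher, Ccnd1 and Mcm6. The proliferation gene Mki67 stood at 46.8 and 80.2 CPM in TUFT and 33.5 and 83.7 CPM in EEC and was not called. Immediate-early genes were lower in 9 of 15 cases and higher in 1, with a median of -0.60. The count of lower genes was 6 with TMM over all genes, 6 without the library block and 4 of 16 with EEC-PRE pooled into EEC. Egr1 stood at 154 and 212 against 568 and 633 CPM (-1.73 ± 0.32) and Fos at 178 and 184 against 425 and 410.1 CPM (-1.19 ± 0.35).

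The EEC side pools 2 classes, so each was also set against TUFT alone. Of the 897 genes higher in TUFT, 542 were called higher against both EC and NON-EC, and of the 1210 lower genes, 556 were called lower against both. Between EC and NON-EC themselves, 156 genes (2.16%) were called, 75 higher and 81 lower in EC. Among the pooled calls, EC and NON-EC were called different in 116 lower genes and in 14 higher genes. Genes enter the higher group by being lower in EEC than in TUFT, which leaves less signal for a difference between EC and NON-EC. The 2 counts are thus partly set by how the groups were chosen, and they were not tested against each other. Some endocrine genes were high in both classes. Fev stood at 243 and 278 CPM in EC, 215 and 174 CPM in NON-EC and 0 and 0 CPM in TUFT, and Krt20 at 1266 and 729 CPM in EC, 1263 and 667 CPM in NON-EC and 29.0 and 19.6 CPM in TUFT. The log2 differences between EC and NON-EC were 0.42 ± 0.20 and 0.02 ± 0.31, neither of them called.

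Other decreases in TUFT rested mainly on 1 class. Tph1 stood at 878 and 485 CPM in EC, 6.88 and 2.00 CPM in NON-EC and 0 and 0 CPM in TUFT. Tac1, the precursor of substance P, was an EC gene too, at 2930.0 and 1554 CPM in EC, 65.4 and 89.9 CPM in NON-EC and 5.57 and 10.7 CPM in TUFT. Atf6 was one as well, at 989.6 and 420.1 CPM in EC, 39.6 and 39.9 CPM in NON-EC and 24.5 and 25.0 CPM in TUFT; its log2 difference between EC and NON-EC was 4.07 ± 0.37 (SE), edgeR adjusted p = 9.11e-06. Against NON-EC alone, the TUFT difference was -0.66 ± 0.64 and was not called (edgeR adjusted p = 0.526). Rab3c had no UMI in NON-EC or TUFT and 519 and 269 CPM in EC. Gcg, Gip and Ghrl had no UMI in EC. Fabp5 stood at 38.8 and 34.0 CPM in EC, 771 and 741 CPM in NON-EC and 11.1 and 33.9 CPM in TUFT. In Cdkn1a the classes lay on opposite sides of TUFT: it stood at 24.3 and 24.7 CPM in EC, 950.0 and 793 CPM in NON-EC and 150.4 and 92.7 CPM in TUFT. TUFT was higher than EC and lower than NON-EC. The pooled log2 change of -2.25 became -0.15 (edgeR adjusted p = 0.792) with EC and NON-EC weighted equally. Gucy2c stood at 63.1 and 71.0 CPM in EC, 188 and 142 CPM in NON-EC and 76.9 and 76.7 CPM in TUFT. It was lower in TUFT than in NON-EC and not called against EC, and its change with equal weights was -0.41 (edgeR adjusted p = 0.133).

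**Figure D5:**
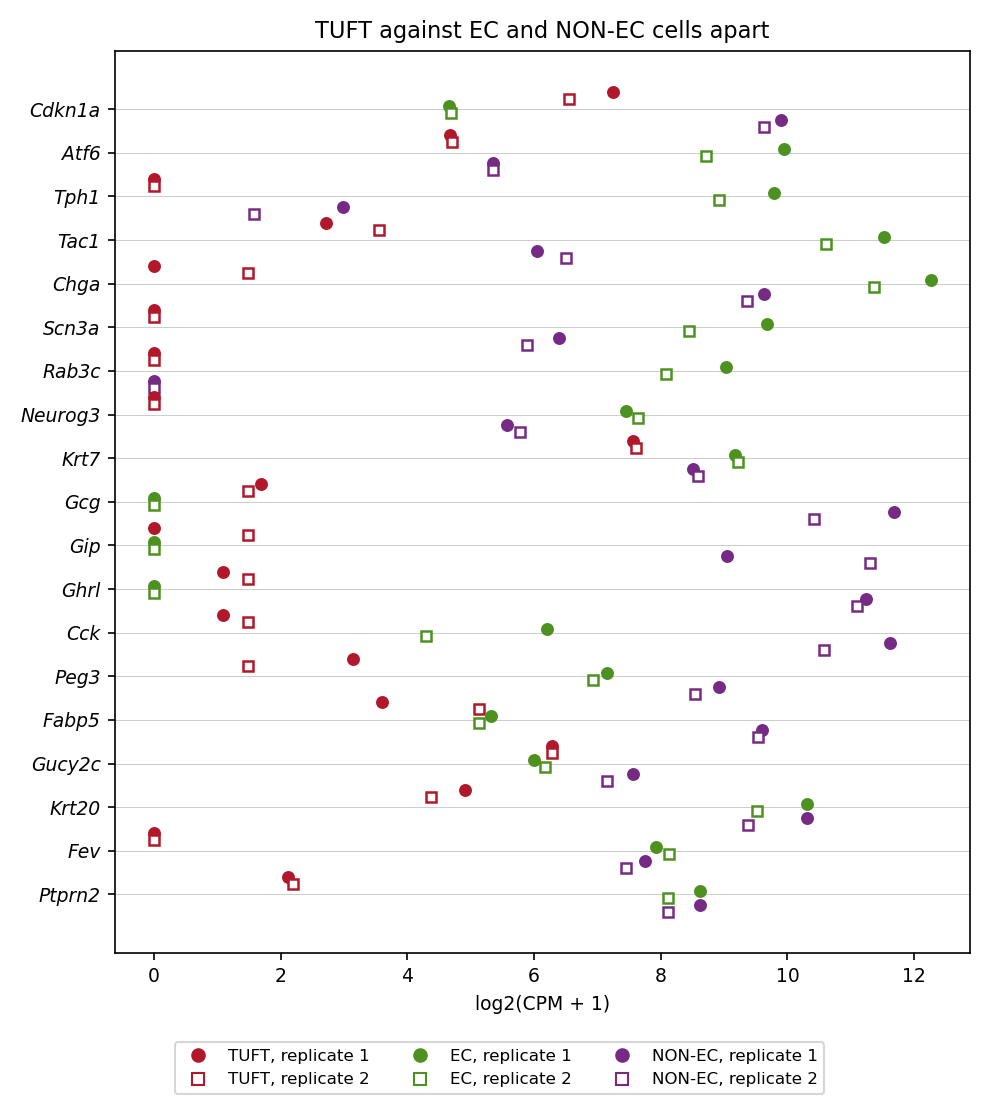
Levels, as log2(CPM + 1), of named genes in TUFT (red), EC (green) and NON-EC (purple), with filled symbols for replicate 1 and open squares for replicate 2; each symbol is 1 sum. Cdkn1a is highest in NON-EC and lowest in EC with TUFT between, Atf6 is high in EC only, and Krt20, Fev and Ptprn2 are high in both endocrine classes.

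Shares of cells with a UMI were compared at 1 depth. At 2000 UMIs per cell, a UMI of Trpm5 was found in 65 of 130 TUFT cells of replicate 1 (interval 41.1 to 58.9%) and in 39.1% (28.8 to 50.1%) in replicate 2 (65.2% and 48.3% without thinning). It was found in 0 of 94 and 0 of 78 NON-EC cells, which allows up to 3.19% and 3.85%, and in 0.133% and 0.155% of goblet precursors, a class that should lack this tuft gene. Dclk1, a kinase used as a tuft marker, was found in 77.7% (69.6 to 84.5%) and 56.3% (45.3 to 66.9%) of TUFT cells (85.7% and 67.8% unthinned). Median depths were 3403 and 2317 UMIs in TUFT and 6104 and 3369 in goblet precursors. Shallower cells were left out, so that 130 of 161 and 87 of 143 TUFT cells, 34 of 42 and 47 of 83 EC cells and 94 of 103 and 78 of 112 NON-EC cells remained. Chga was found in 100% and 97.9% (100% and 100% unthinned) of EC cells, in 72.3% and 67.9% (87.4% and 75.0% unthinned) of NON-EC cells and in 0 of 130 and 0 of 87 TUFT cells, against 0.133% and 0.465% of goblet precursors. Neurog3 was found in 20.6% and 31.9% (23.8% and 39.8% unthinned) of EC and 11.7% and 14.1% (15.5% and 15.2% unthinned) of NON-EC cells. It was found in 0 TUFT cells of either library, which allows up to 2.31% and 3.45%, and in 0.0887% and 0.0776% of goblet precursors. Krt20 was found in 6.15% and 5.75% (10.6% and 4.90% unthinned) of TUFT cells and 86.2% and 67.9% (86.4% and 75.9% unthinned) of NON-EC cells, against 49.1% and 47.7% of goblet precursors. Kit was found in 60.0% and 67.8% (73.9% and 83.9% unthinned) of TUFT and 22.3% and 24.4% (35.9% and 35.7% unthinned) of NON-EC cells, against 18.0% and 26.3% of goblet precursors. For Krt20 and Kit the goblet precursor shares are a level in another class and no measure of background. With at least 5 UMIs of a hormone required, 59 of 103 and 41 of 112 NON-EC cells held 2 or more of 8 peptide hormones, and 0 EC cells did.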

How the data were processed

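Single-cell RNA-seq (10x) counts of 2 libraries of Tom+ ileal crypt cells were used. The raw UMI count matrices were made by the authors with Cell Ranger 3.0.2 on mm10, per the submitters' processing notes. The deposited cell table gives library, class, UMI count and the percent of mitochondrial UMIs, as the authors computed it. Their filters and clustering are not given in the sources used here. All 11562 listed cells were kept, with no filter added. The 12 barcodes found in both libraries are in none of the compared classes. UMIs were summed per class and library (22 sums, EC and NON-EC pooled) and fitted in edgeR 4.0.16 (R 4.3.3) with class and library, TMM factors from abundant genes (average log2 CPM 6 or more), and the filter filterByExpr with a minimum count of 10. CPM values are scaled by these factors. The library is the block because both sums of a pair come from 1 library. The fit has 10 residual degrees of freedom, a median biological coefficient of variation of 0.0630, and 2732 genes at an unadjusted p under 0.05. These degrees of freedom come from all 22 sums, and the 4 TUFT and EEC sums alone with the block leave 1. A fit of 24 sums kept EC and NON-EC apart. DESeq2 1.42.0 was an alternative. Scrublet (scanpy 1.11.5, Python 3.11.15) marked 2 cells per library and had not worked, so the 5% of cells with the highest scores were left out instead, an alternative chosen after seeing the data. The compared classes and lists were chosen with earlier results of these data known.

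Named genes were the 12 largest changes each way among called genes with a mean log2 CPM of at least 5, the same direction in both libraries, and no marker, mitochondrial, ribosomal, haemoglobin or unnamed gene. To these came the 4 members of each list with the smallest p, called members against their list's direction where 5 or fewer, and 14 genes named whatever their values. Further genes, chosen after their values were seen, were Alox5, Bmx, Cpe, Egr3, Ffar3, Fos, Hk1, Itpr3, Krt8, Mki67, Pax6, Pcsk1n, Pfkp, Pla2g4a, Ptprc, Pts, Sct, Sh2d7, Snap25, Sox9, Spdef, Spr, Vav1, Vil1, Xbp1, 1810046K07Rik and those under other observations. Of 216 named genes checked, 65 overlap a measured gene on the other strand. The words searched in promoters, on both strands, were the octamer ATGCAAAT with a shorter form of it (ATGCAAA), the E-box words CAGATG for endocrine factors, CAGCTG for other factors of that family and CACGTG for zipper factors, the X-box word GTTGCCA for RFX factors, the GFI1 word AATCACTGC with the core AATCA for that factor, the homeobox words TAATTA for most such factors and GCATTAAT for the others, the ETS word AGGAAGTG with the core GGAAGT for that family, and the TATA word TATAAA. Longer forms of the X-box, the GFI1 site and the CArG box were searched too. The shorter forms overlap the longer ones.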

Additional observations from a re-analysis of the deposited data

Results flagged for a closer look

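Cdkn1a, an inhibitor of the cell cycle, is raised for a closer look because the 2 endocrine classes lay on opposite sides of TUFT and the difference itself was tested. It is 1 of 3 genes for which this held. The others, Fam49b and Dmxl1, lay the other way, with EC minus NON-EC differences of 2.43 and 1.06, and were outside the rule for naming genes. For Cdkn1a the EC minus NON-EC difference was -5.16 ± 0.35 (SE), edgeR adjusted p = 1.27e-09. TUFT minus EC was 2.38 and TUFT minus NON-EC -2.75, with adjusted p-values of 8.15e-04 and 1.78e-10 by edgeR. At 2000 UMIs per cell it was found in 2.94% (0.0744 to 15.3%) and 10.6% (3.55 to 23.1%) of EC cells, 36.2% (27.9 to 45.0%) and 16.1% (9.09 to 25.5%) of TUFT cells and 74.5% (64.4 to 82.9%) and 65.4% (53.8 to 75.8%) of NON-EC cells. Both libraries showed the same order.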

How the results depend on the processing

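The counts of called genes moved most with the library block, the depth and the makeup of EEC. In the 4 TUFT and EEC sums alone, 876 genes were higher and 1159 lower with the library block, and 434 and 768 without the block. The count of lower genes was also 709 with a minimum count of 30 (3416 genes tested), 643 with cells thinned to 2000 UMIs (4757 genes tested) and 775 against EC alone (5164 genes tested). Under the other alternatives the counts stayed within 1.5 times, between 610 and 1093 higher and between 963 and 1374 lower. Of the main calls, 1 was called in the opposite direction, against EC alone. For 215 named genes, 3140 values under alternatives with a test were compared. Direction and call held in 2999, the call was lost in 137 and gained in 1, and the direction turned in 3. Those were Cdkn1a against EC alone (2.34), Gucy2c against EC alone (0.15) and Sox4 with EEC-PRE pooled (-0.22). Calls were lost most often for Jak1, Cdx2 and Cdh17, under 9 alternatives each. Leaving out 1 library leaves the difference within the other, a value with no test. Of the 215 named genes, 86 moved by more than the spread between the libraries without replicate 1 and 57 without replicate 2. The sign turned for 6 genes without replicate 1 (Atoh1, Egr3, Itpr3, Mki67, Pts and Spr), none of them called, and for 0 without replicate 2. On simulated data for this comparison (7121 genes, 200 of them changed), the fit recovered 97% of 4-fold and 55% of 2-fold changes. Smaller differences can thus be missed at this depth. The changed genes were picked among the more abundant ones, and the 2 sides were otherwise simulated alike. Recovery among genes with low counts, or with as many changes as were called here, was not tested. Besides those given with the results, further list counts moved by over 1.5 times, among them the following. Fewer genes were tested in several of these cases. The 10 lower channels became 4 of 6 tested with a minimum count of 30, 5 of 8 thinned and 5 of 8 against EC alone. The 5 lower nutrient receptors were 3 of 7 with DESeq2 or equal weights and 11 of 22 with no filter. The 10 lower G protein subunits became 5 of 14 thinned. The 4 higher Notch genes became 1 of 9 in the 4 sums without the block, 0 of 2 with a minimum count of 30 and 1 of 6 against NON-EC alone. The 7 lower growth factor genes became 4 of 18 in the 4 sums without the block, 2 of 7 with a minimum count of 30 and 3 of 14 against NON-EC alone. The 5 higher glycolysis genes became 3 without the block, and the 5 lower cell cycle genes 3. The 3 higher exocytosis genes and the 3 lower lineage factors became 1 each in the 4 sums without the block.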

Other observations

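Several genes outside the lists are named here after their values were seen, and they stand for no group. Sis, the brush border sucrase, had 0 and 2 UMIs in TUFT and 358 and 218 in EEC, 262 times (95% counting interval 72.3 to 2171) as high in EEC. Slc5a1, the glucose transporter of enterocytes, stood at 3.34 and 5.35 CPM in TUFT and 109 and 58.2 CPM in EEC (log2 change -4.36 ± 0.53 (SE), edgeR adjusted p = 3.01e-07). Anpep, an aminopeptidase, had 0 and 3 UMIs in TUFT and 63 and 41 in EEC, and Rbp2, a retinol binding protein, had 1 and 2 UMIs in TUFT and 130 and 69 in EEC. Their UMIs lay mostly in NON-EC, at 108 and 79.9 CPM and 224 and 134 CPM. Sis was in both classes, at 645 and 355 CPM in EC and 387 and 206 CPM in NON-EC. Fabp1, an enterocyte marker, was higher in TUFT (42 and 78 UMIs in TUFT and 0 and 7 in EEC, 4.34 ± 0.73), and Alpi, another, had no UMI on either side. Free RNA held Sis at 34.8 and 44.6 CPM and Fabp1 at 128 and 120.0 CPM, and its part in these values was not tested.

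Further genes were chosen the same way. Vim, the vimentin gene, had 0 and 0 UMIs in TUFT and 223 and 181 in EEC and was at least 123-fold lower in TUFT, with 669 and 482 CPM in EC and 146 and 49.9 CPM in NON-EC. The collagen genes Col1a1 and Col3a1, defining markers of fibroblasts, had no UMI on either side. Of the 5 stromal or endothelial markers, which include these genes and Vim, all 5 had no UMI in either TUFT sum. In each EEC sum only 3 of the 5 had none, so Vim was not the only one found there. Map1b, a microtubule protein of axons, had 1 and 1 UMIs in TUFT and 195 and 187 in EEC. Nefm, a neurofilament gene, had 0 and 0 UMIs in TUFT and 107 and 80 in EEC. Il6ra, a cytokine receptor, had 0 and 0 UMIs in TUFT and 81 and 31 in EEC and Il17re 0 and 1 UMIs in TUFT and 91 and 42 in EEC. Pygl, the glycogen phosphorylase, had 243 and 129 UMIs in TUFT and 2 and 2 in EEC, and Pgm2l1 and Bpgm differed by 3.46 ± 0.25 and 2.71 ± 0.21. The kinase-like gene Trib2 had 62 and 42 UMIs in TUFT and 0 and 0 in EEC.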
